A study of Mus musculus with 4 samples.

Results

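The 38 genes described here are interferon response genes of the mouse, taken by name from a fixed list. The list holds the IFIT, OAS, Mx, GBP and IRG families, the ISG15 system, viperin and its neighbour, nucleic acid sensors, transcription factors of the response, a PARP group and 6 other induced genes. All 38 were found by Ensembl identifier in each of the 4 count files, among 50686 gene identifiers in the hip files and 54838 in the knee files.

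The libraries are labelled as mouse articular cartilage. They asked what changes when Cbfb, which encodes the partner subunit of the RUNX transcription factors, is deleted in cartilage cells. The study's discussion calls the hip samples pure cartilage and says that those of the knee also held bone. In the hip, 1 library was from Cbfb f/f mice with no Cre and a treatment label of None, and 1 was from tamoxifen-injected Cbfb f/f;Col2a1-CreERT mice, which received 75 mg/kg per day for 5 days from 2 weeks of age. Both are given as 6 weeks old in the legend for these data, while the study's text gives another age and calls the hip control wild type. In the knee, both libraries were from Cbfb f/f;Aggrecan-CreERT mice injected for 5 days, 1 with oil and 1 with tamoxifen at 75 mg/kg per day. The legend gives both knee libraries an age of 12 weeks and the tamoxifen injection an age of 6 weeks, while the methods start the injections of this line at 8 weeks. By the labels, all groups thus carried floxed Cbfb alleles, and only the hip control lacked a Cre. The Col2a1 and Aggrecan promoters drive a Cre recombinase that needs tamoxifen, chiefly in chondrocytes. Whether animals were pooled for a library is not given. The extraction notes in the labels name osteoblasts, although the tissue labels give articular cartilage.

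Interferons are secreted signals of antiviral defence that bind paired receptors and activate the kinases JAK1 and TYK2 or JAK2. Type I interferons lead to a complex holding STAT2 and IRF9 that binds the interferon-stimulated response element, and type II interferon acts through a shorter element called GAS. The genes switched on in this way block viral translation and replication, sense foreign RNA and DNA, and feed back on the pathway itself. In bone and cartilage, interferons are known above all as brakes on osteoclast formation and as signals in joint inflammation.

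The interferon-stimulated response element carries the letters GAAA, any 2 bases and GAAA again, or TTTC, any 2 bases and TTTC when read on the other strand. RefSeq promoters of GRCm38.p6, from 250 bases before to 50 bases after the start of the transcript, were at hand for 28 of the 38 genes. The letters occurred on either strand in 16 of these 28 genes (57.1%), beside 3.99% of all 27025 genes with a promoter in the same table. The letters of GAS, TTCNNNGAA, occurred in 8 of the 28 genes (28.6%), beside 9.55% of all genes. Both motifs were found for Oas1a, Bst2, Gbp7, Irgm2 and Igtp. A match is a stretch of letters and was not tested as a binding site. No promoter entry was found for Oas2, Mx1, Mx2, Usp18, Ifi27, Dhx58, Zbp1, Rtp4, Parp9 and Parp14.

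The stretches that hold the response element letters are shown for 7 of the genes whose counts are described next, because these are the members of the IFIT, OAS, ISG15 and viperin groups whose promoter window holds the letters. Each reads 5′ to 3′ on the gene's strand, with the matched letters in capitals, and all lie before the start of the transcript in GRCm38.p6. They are chr19:34640784-34640833 on the plus strand for Ifit1, chr19:34583387-34583436 on the plus strand for Ifit3, chr19:34607783-34607832 on the plus strand for Ifit3b, chr4:156200855-156200904 on the minus strand for Isg15, chr5:120907526-120907559 on the minus strand for Oas1a, chr5:120777705-120777754 on the minus strand for Oas3 and chr12:26456543-26456592 on the minus strand for Rsad2.
Ifit1: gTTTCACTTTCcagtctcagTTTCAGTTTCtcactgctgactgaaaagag
Ifit3: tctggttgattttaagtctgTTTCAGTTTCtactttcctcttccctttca
Ifit3b: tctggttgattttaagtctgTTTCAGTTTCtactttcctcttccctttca
Isg15: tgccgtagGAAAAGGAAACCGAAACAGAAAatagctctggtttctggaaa
Oas1a: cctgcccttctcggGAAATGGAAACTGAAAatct
Oas3: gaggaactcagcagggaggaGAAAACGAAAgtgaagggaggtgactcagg
Rsad2: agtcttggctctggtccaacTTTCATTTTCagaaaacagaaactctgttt
The stretches of Ifit3 and Ifit3b are identical, and those of Isg15 and Oas1a hold overlapping repeats of the motif.

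The authors deposited the reads counted on each gene, 34264456 to 38473120 per library. A log2 ratio here compares the library labelled Cbfb-deficient with its control within 1 joint, after TMM scaling and with 0.5 added to each count, for genes with at least 10 counts over the pair. With 1 library per condition there is no replicate error and no test, so each ratio compares 2 libraries, and the 95% interval printed with it (Clopper-Pearson) is one of counting error alone. A gene is said to lie above or below 0 where its whole interval does, and to be within counting error where the interval includes 0. A ratio is called higher or lower where it is at least 1 in size with an interval that excludes 0. Counts of Cbfb itself were 2548 and 2946 for the hip (control first, as throughout) and 3796 and 4572 for the knee. Its log2 ratios were 0.41 (-0.39 with the GC trend removed) and -0.07, and a count over a whole gene does not show the loss of an exon. Before the GC trend was removed, the hip ratio of Cbfb went against the label of a deletion, so its counts do not check the hip labels, and the sign of every hip ratio rests on those labels. In the hip libraries 21.4% and 22.1% of counts fell on skeletal muscle genes, and 0.60% and 0.23% on erythroid genes. For the knee pair the muscle share was 1.53% and 3.32%, and the erythroid share 10.2% and 5.10%. Chondrocyte genes held 0.0192% of counts for the hip control and 0.599% for the knee control.

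The interferon response genes were more abundant in the knee libraries. Their summed share of all counts was 0.0201% in the hip control and 0.0185% in its partner labelled Cbfb-deficient, and 0.122% and 0.114% in the knee libraries. In counts scaled to the library total (CPM), 37 of the 38 genes were higher in both knee libraries than in both hip libraries, the exception being Ifit3b. The median ratio of knee control to hip control was 5.40 over the 36 genes with more than 3 counts in the hip control. The hip and knee were counted separately. The joint cannot be told apart from the Cre line, the age, the kind of control, the counting program or the tissue taken, which in the knee included bone. Markers of leukocytes also stood higher in the knee, with 2021 CPM summed over 5 genes in the knee control and 93.7 in the hip control, and their part in the result was not tested. In bulk RNA, fewer cells of a type and less RNA per cell cannot be told apart.

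**Figure D1:**
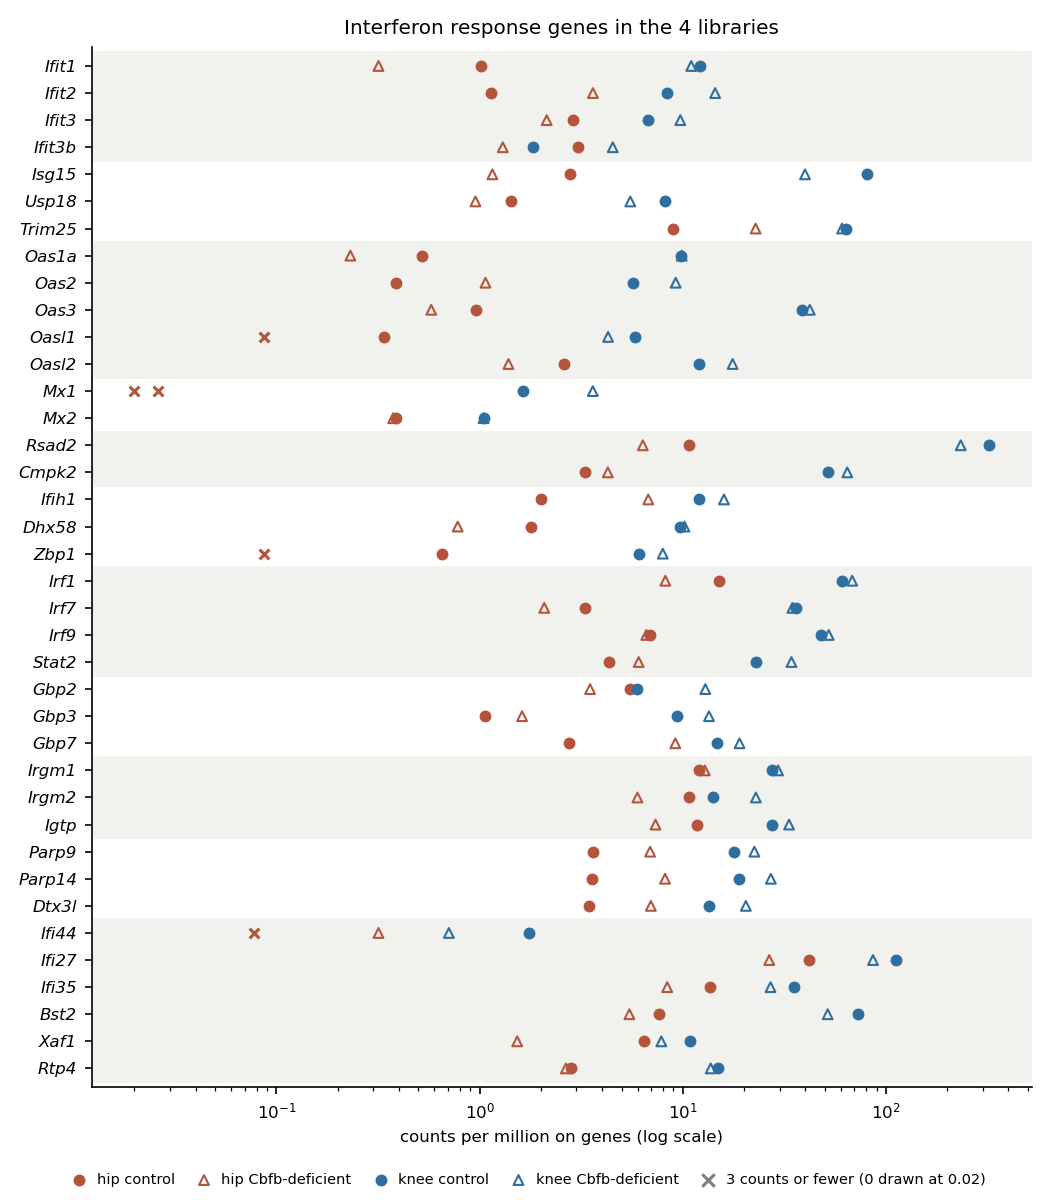
CPM, each count scaled to the total of its library (log scale), of the 38 interferon response genes, grouped by family in shaded bands, in the hip control (filled red), the hip library labelled Cbfb-deficient (open red), the knee control (filled blue) and the knee library labelled Cbfb-deficient (open blue). Crosses mark 3 counts or fewer, with 0 drawn at 0.02, and the blue symbols lie to the right of the red ones for every gene except Ifit3b.

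As CPM per kilobase of transcript, the highest level in the knee control was that of Isg15, at 103, followed by Bst2 at 90.7, Rsad2 at 85.3, Ifi27 at 46.8 and Irf1 at 28.4. The lowest was that of Mx2, at 0.434. On the same scale the hip control was led by Ifi27 at 17.4, with Ifi35 at 10.0, Bst2 at 9.48 and Irf1 at 7.03. Isg15 stood at 3.56 there. In raw counts, Rsad2 alone gave 26.4% of all counts of the 38 genes in the knee control and 20.4% in its partner, but 5.33% and 3.44% in the hip libraries. The hip counts were low, with 2 genes at or under the floor of 3 counts in the control and 3 in its partner.

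In the hip, the genes differed in both directions, with calls near even and more intervals below 0 than above. These directions rest on the hip labels. Of 37 genes with enough counts, all except Mx1, 8 were called higher, beside 20.2% of all 19856 genes tested in the hip, and 7 were called lower, beside 16.3%. By the interval alone, 12 genes lay above 0, beside 37.3% of all genes, and 17 lay below 0, beside 33.7%. The median log2 ratio was -0.53, beside 0.01 over all genes, and the ratios ranged from -2.67 to 1.91. With the length and GC trends removed the median was -0.13, beside 0 over all genes. Upper quartile scaling, which moved the median of all hip genes to -0.33, left 5 genes called higher, beside 14.0% of all genes, and 14 called lower, beside 24.0%.

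In the knee, the differences were smaller, and the balance of directions moved with the scaling. Of 38 genes, 1 was called higher, beside 9.0% of all 21131 genes tested in the knee, and 2 were called lower, beside 6.81%. By the interval alone, 15 genes lay above 0, beside 31.9% of all genes, and 13 below 0, beside 29.7%. The median log2 ratio was -0.03, beside 0.02 over all genes, with a range from -1.48 to 1.11. The sum over all 38 genes had a log2 ratio of -0.28, and of -0.17 without Rsad2. Scaling by library size alone moved the median of all knee genes to 0.20 and that of the 38 genes to 0.15, and upper quartile scaling moved them to -0.10 and -0.15. With library size scaling 21 genes lay above 0 and 9 below, beside 43.0% and 20.1% of all genes, and with upper quartile scaling 11 above and 19 below, beside 25.3% and 36.1%, so a knee ratio close to 0 takes its side from the scaling.

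**Figure D2:**
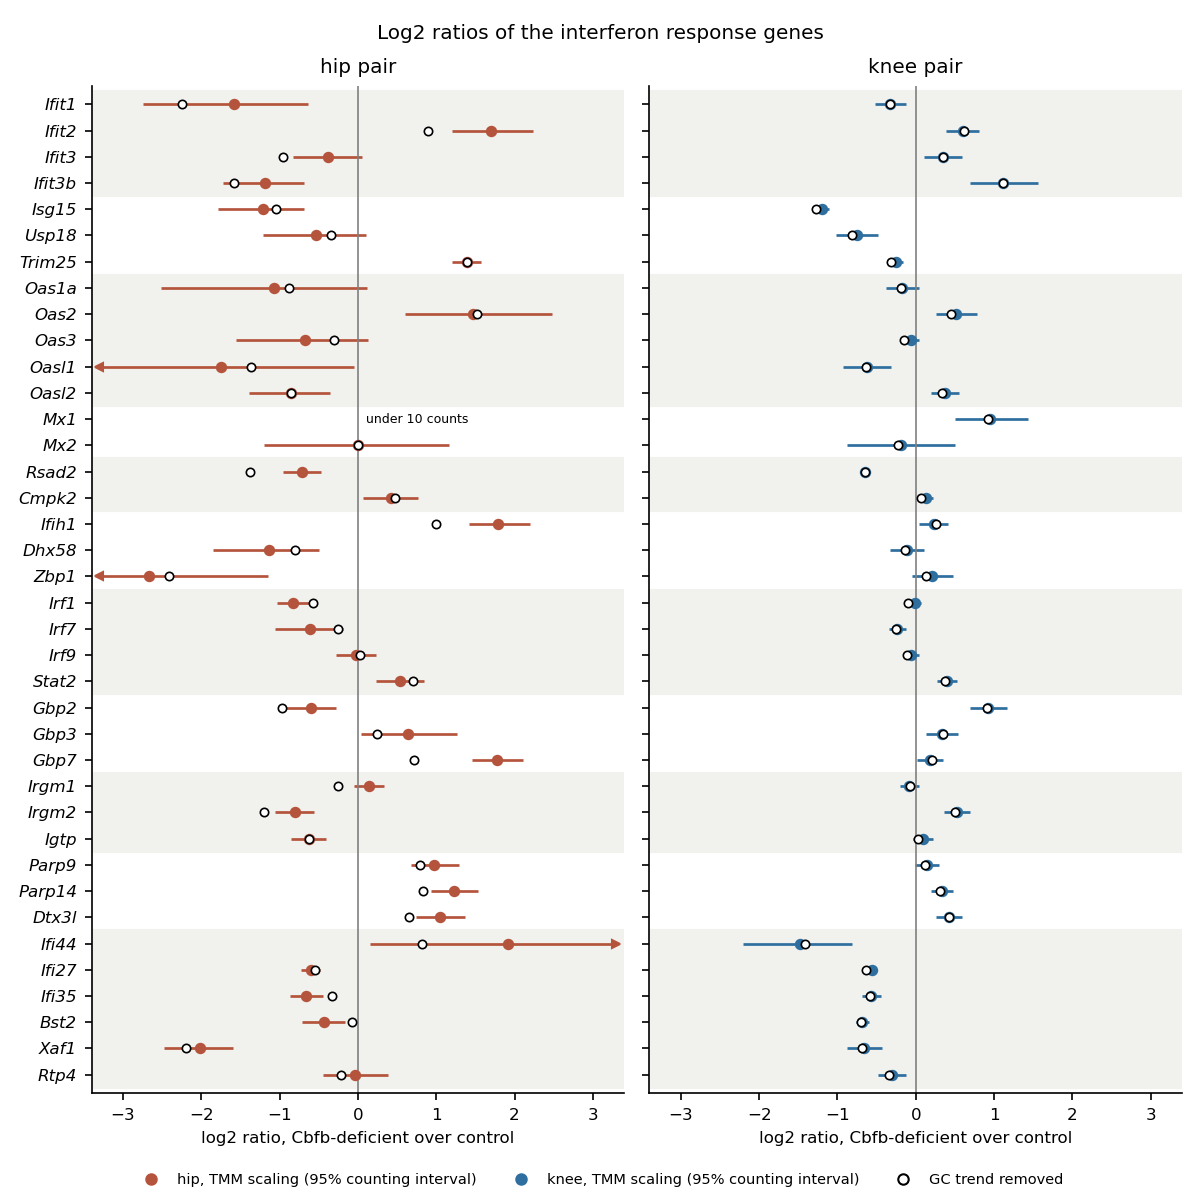
Log2 ratio of the library labelled Cbfb-deficient over its control for each of the 38 genes, hip at left and knee at right, grouped by family. Filled points are TMM-scaled ratios, lines are 95% counting intervals with arrowheads where they leave the axis, and open points have the GC trend removed. The hip points spread from -2.67 to 1.91 and the knee points from -1.48 to 1.11.

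The IFIT genes encode proteins that hold viral RNA back from translation, and they lie side by side on chromosome 19 of GRCm39 between 34527932 and 34632174. Ifit1 had 39 and 11 counts in the hip, a log2 ratio of -1.58 (95% interval -2.74 to -0.63), and 417 and 421 in the knee, where the ratio was -0.33 (-0.52 to -0.13). Ifit2 went the other way, with 44 and 125 hip counts and 288 and 552 knee counts, at log2 ratios of 1.69 (1.20 to 2.23) and 0.60 (0.39 to 0.81). Ifit1 and Ifit2, at the ends of this stretch among the members, thus lay on opposite sides of 0 in both joints. Scaled by library size alone, the interval of Ifit1 in the knee included 0. With the GC trend removed, the hip ratio of Ifit1 was -2.25 (-2.57 with the length trend also removed). That of Ifit2 was then 0.90, below the size of a call.

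Ifit3 and Ifit3b are near-identical copies, so the division of reads between them is uncertain. Ifit3 had 111 and 74 counts in the hip, a log2 ratio of -0.38 within counting error (-0.83 to 0.05), and 231 and 372 in the knee, a ratio of 0.35 (0.11 to 0.59). Ifit3b had 118 and 45 hip counts and 63 and 173 knee counts. Its log2 ratios were -1.18 (-1.72 to -0.69) and 1.11 (0.69 to 1.56), the highest of the 38 genes in the knee. Ifit3b thus lay below 0 in the hip and above 0 in the knee. Ifit3 lay below 0 in the hip with DESeq2 size factors and with upper quartile scaling, and was within counting error in the knee with upper quartile scaling.

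ISG15 is a ubiquitin-like protein that is joined to other proteins during the interferon response, USP18 removes it and restrains the receptor, and TRIM25 is a ubiquitin ligase that activates the RNA sensor RIG-I. Isg15 (ENSMUSG00000035692, chromosome 4 of GRCm39 from 156283883 to 156285303) had 107 and 40 hip counts and 2763 and 1529 knee counts. It was called lower in both joints, with log2 ratios of -1.21 (-1.78 to -0.69) and -1.19 (-1.28 to -1.10). With the length and GC trends removed these were -0.77 and -0.88, below the size of a call in both joints. Of its exon bases, 31.1% overlap an annotated gene on the opposite strand, and the strand setting of the counting is not given. Usp18 had 55 and 33 counts in the hip, a ratio of -0.53 within counting error (-1.21 to 0.11), and 280 and 211 in the knee, a ratio of -0.75 (-1.01 to -0.48). Trim25 had 346 and 790 counts in the hip, a log2 ratio of 1.39 (1.20 to 1.58) that stayed at 1.39 with the GC trend removed. Its knee counts were 2191 and 2326, at -0.25 (-0.34 to -0.17). All 3 genes lay below 0 in the knee, beside 29.7% of all genes, although with library size scaling the interval of Trim25 included 0.

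The genes of ISG15 conjugation among the wider lists are given here as values, and Uba7 and Herc6 were chosen after their values were seen. Uba7, which encodes its activating enzyme, had 166 and 200 hip counts and 1272 and 2402 knee counts, with log2 ratios of 0.47 (0.83 with the GC trend removed and 0.12 with upper quartile scaling) and 0.58. Herc6, which encodes its ligase in the mouse, had 17 and 70 counts in the hip, a ratio of 2.21 that was 1.11 with the GC trend removed, and 321 and 357 in the knee, a ratio of -0.19 within counting error. Ube2l6, the conjugating enzyme, was lower in both, with 2203 and 801 hip counts (-1.26) and 15553 and 12422 knee counts (-0.66).

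Viperin, the product of Rsad2, blocks viral polymerases, and CMPK2 is a nucleotide kinase encoded next to it on chromosome 12. Rsad2, which spans 26492745 to 26506451 of chromosome 12 (GRCm39), had the most counts of the 38 genes in the knee, 11059 and 8933. Its knee ratio was -0.65 (-0.69 to -0.61), and with 413 and 220 counts its hip ratio was -0.71, or -1.37 with the GC trend removed. Cmpk2 had 127 and 148 hip counts and 1776 and 2468 knee counts, with log2 ratios of 0.42 (0.07 to 0.77) and 0.14 (0.05 to 0.22). The neighbours therefore differed in sign in both joints. The interval of Cmpk2 included 0 with upper quartile scaling in both joints and with DESeq2 size factors in the hip.

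OAS enzymes sense double-stranded RNA and start its decay through RNase L, while OASL1 and OASL2 are related proteins. Oas2 had 15 and 37 hip counts and 195 and 353 knee counts, at log2 ratios of 1.47 (0.60 to 2.47) and 0.52 (0.26 to 0.78). Oasl1 was lower in both, with 13 and 3 counts in the hip (-1.75, -4.37 to -0.05) and 200 and 164 in the knee (-0.62, -0.93 to -0.32). At 3 counts its hip ratio rests on the floor. Oasl2 had 100 and 48 hip counts and 411 and 673 knee counts, so that its ratios of -0.85 (-1.39 to -0.35) and 0.37 (0.19 to 0.55) differed in sign. Oas1a, with 20 and 8 hip counts, and Oas3, with 37 and 20, were within counting error in both joints, and their knee ratios of -0.17 and -0.06 changed sign with library size scaling. With upper quartile scaling both genes lay below 0 in both joints. In the knee, Oas3 lay above 0 with library size scaling and below 0 with the GC trend removed.

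The Mx GTPases trap viral nucleocapsids. Mx1 had 1 and 0 counts in the hip, too few for a ratio, and 56 and 138 in the knee, a log2 ratio of 0.95 (0.50 to 1.44). Mx2 had 15 and 13 hip counts and 36 and 40 knee counts. Neither ratio of Mx2 could be told from 0 at this depth, at 0.00 (-1.20 to 1.16) and -0.19 (-0.87 to 0.50).

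Among the sensors, Ifih1 encodes MDA5, which binds long double-stranded RNA, Dhx58 encodes LGP2, which tunes it, and Zbp1 senses Z-form nucleic acid and starts cell death. Ifih1 had 77 and 234 counts in the hip, a log2 ratio of 1.80 (1.42 to 2.19), and 411 and 610 in the knee, a ratio of 0.23 (0.05 to 0.41). Its knee interval included 0 with upper quartile scaling. Dhx58 had 69 and 27 counts in the hip, a ratio of -1.14 (-1.86 to -0.49) that was -0.81 with the GC trend removed, below the size of a call. Zbp1 stood at the floor there, with 25 and 3 counts and the lowest ratio of all, -2.67 (-5.23 to -1.15). In the knee, Dhx58 (333 and 390 counts) and Zbp1 (208 and 305) were within counting error, at -0.11 and 0.21. The 3 sensors thus split in the hip, with Ifih1 above 0 and the other two below.

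IRF1, IRF7 and IRF9 are transcription factors of the response, and STAT2 joins IRF9 in its activating complex. Irf1 had 578 and 284 counts in the hip, a log2 ratio of -0.83 (-1.04 to -0.62), and 2081 and 2610 in the knee, a ratio of -0.01 (-0.10 to 0.07). Its hip ratio was -0.57 with the GC trend removed. Irf1 shares 46.0% of its exon bases with annotated genes on the opposite strand. Irf7, the amplifier of type I interferon production, was lower in both joints, with 127 and 72 counts in the hip (-0.62, -1.06 to -0.19) and 1231 and 1325 in the knee (-0.23, -0.35 to -0.12), but its hip interval included 0 with the GC trend removed and its knee interval did with library size scaling. Stat2 had 166 and 210 hip counts and 786 and 1311 knee counts, and was higher in both, at 0.54 (0.24 to 0.84) and 0.40 (0.27 to 0.53), with a hip interval that included 0 under upper quartile scaling. Irf9 was within counting error in both, at -0.02 and -0.06. In the knee, Irf1 and Irf9 lay below 0 with upper quartile scaling and with the GC trend removed, but above 0 with library size scaling. Irf9 also lay below 0 in the hip with upper quartile scaling.

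Guanylate-binding proteins, the GBPs, attack vacuoles that hold pathogens, and 3 of the family lie in 1 cluster on chromosome 3. In the knee all 3 lay above 0, beside 31.9% of all genes. Gbp2 had 205 and 494 counts there, a log2 ratio of 0.93 (0.69 to 1.17), while its hip counts of 211 and 121 gave -0.60 (-0.94 to -0.28). Gbp7 had 106 and 318 counts in the hip, a ratio of 1.78 (1.46 to 2.11) that was 0.72 with the GC trend removed, and 508 and 728 in the knee, a ratio of 0.18 (0.01 to 0.35). Gbp3 had ratios of 0.64 in the hip and 0.34 in the knee. With upper quartile scaling the interval of Gbp7 in the knee included 0, as did that of Gbp3 in the hip with upper quartile, library size and DESeq2 scaling.

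The IRG GTPases act at the same vacuoles. Irgm2 had 415 and 207 counts in the hip, a log2 ratio of -0.80 (-1.05 to -0.56), and 481 and 876 in the knee, a ratio of 0.52 (0.36 to 0.69). Its pattern was that of Gbp2, lower in the hip and higher in the knee. Igtp, which overlaps Irgm2 on chromosome 11, had 451 and 254 counts in the hip (-0.63, -0.86 to -0.41) and 945 and 1276 in the knee (0.09, -0.03 to 0.22). Irgm1 had 462 and 444 hip counts and 941 and 1126 knee counts, and its ratios of 0.14 and -0.08 changed sign in the hip with the GC trend removed and in the knee with library size scaling.

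PARP9 and DTX3L form an enzyme pair that modifies histones, and PARP14 is a related ADP-ribosyltransferase, all 3 encoded within 1 stretch of chromosome 16. In the hip all 3 lay above 0, beside 37.3% of all genes, and did so under each of the 5 scalings tried. Parp9 had 139 and 239 counts there, a log2 ratio of 0.98 (0.67 to 1.29). Parp14 had 138 and 283, a ratio of 1.23 (0.94 to 1.54), and Dtx3l had 133 and 241, a ratio of 1.05 (0.74 to 1.37). With the GC trend removed these were 0.79, 0.83 and 0.65. The knee ratios were smaller, at 0.14 for Parp9, within counting error, 0.34 for Parp14 and 0.42 for Dtx3l. Parp9 and Dtx3l share 8% to 9.12% of their exon bases on opposite strands.

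Of the 6 other induced genes, all lay below 0 in the knee, beside 29.7% of all genes, and 4 did in the hip, beside 33.7%. Rtp4 was within counting error in the knee with library size scaling. Bst2 encodes tetherin, which holds budding virions at the cell surface, and had 294 and 189 counts in the hip (-0.44, -0.71 to -0.17) and 2505 and 1977 in the knee (-0.68, -0.77 to -0.60). Its hip difference was within counting error with the GC trend removed, at -0.07. Xaf1, a pro-apoptotic gene, had 247 and 53 counts in the hip, a log2 ratio of -2.01 (-2.48 to -1.59) that was -2.20 with the GC trend removed, and 374 and 300 in the knee, a ratio of -0.66 (-0.88 to -0.43). Ifi27 had 1606 and 922 counts in the hip, the most of the 38 genes, and 3855 and 3304 in the knee. Its ratios were -0.60 and -0.56. Ifi35 had ratios of -0.66, or -0.32 with the GC trend removed, and -0.56. Ifi44 was sparse in the hip, with 3 and 11 counts (1.91, 0.15 to 4.55), which came within counting error with upper quartile scaling and with the GC trend removed, at 0.82 (-0.94 to 3.46). It had the lowest ratio of all in the knee, from 60 and 27 counts (-1.48, -2.20 to -0.81). Rtp4, which encodes a receptor transporter, had ratios of -0.03 in the hip and -0.31 in the knee. The exons of Rtp4 share 29.1% of their bases with other annotated genes, those of Ifi35 24.5%, of Gbp7 15.8% and of Irgm2 12.1%, so some of their reads could belong to a neighbour.

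Set side by side, 9 genes lay below 0 in both joints and 9 above 0 in both. Those below were Ifit1, Isg15, Rsad2, Oasl1, Irf7, Ifi27, Ifi35, Bst2 and Xaf1, 9 of the 37 genes with a ratio in both, beside 12.9% of all 17594 such genes. Those above were Ifit2, Oas2, Stat2, Ifih1, Cmpk2, Gbp3, Gbp7, Parp14 and Dtx3l, beside 18.1% of all genes. The joints went opposite ways for 6 genes, beside 20.5% of all genes. Ifit3b, Oasl2, Gbp2 and Irgm2 were lower in the hip and higher in the knee, and Ifi44 and Trim25 were higher in the hip and lower in the knee. With the GC trend removed, 7 genes lay below 0 in both joints, beside 13.0% of all genes, as Irf1 joined and Oasl1, Irf7 and Bst2 left. Above 0 in both were 7, beside 17.6%, without Cmpk2 and Gbp3, and 6 lay on opposite sides, beside 18.4%, with Ifit3 in place of Ifi44. The difference between joints was not tested, and the pairs share no library. This tally also rests on the hip labels. Were they turned, the 9 and 9 genes on the same side with TMM would lie on opposite sides, and the 6 on the same side.

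**Figure D3:**
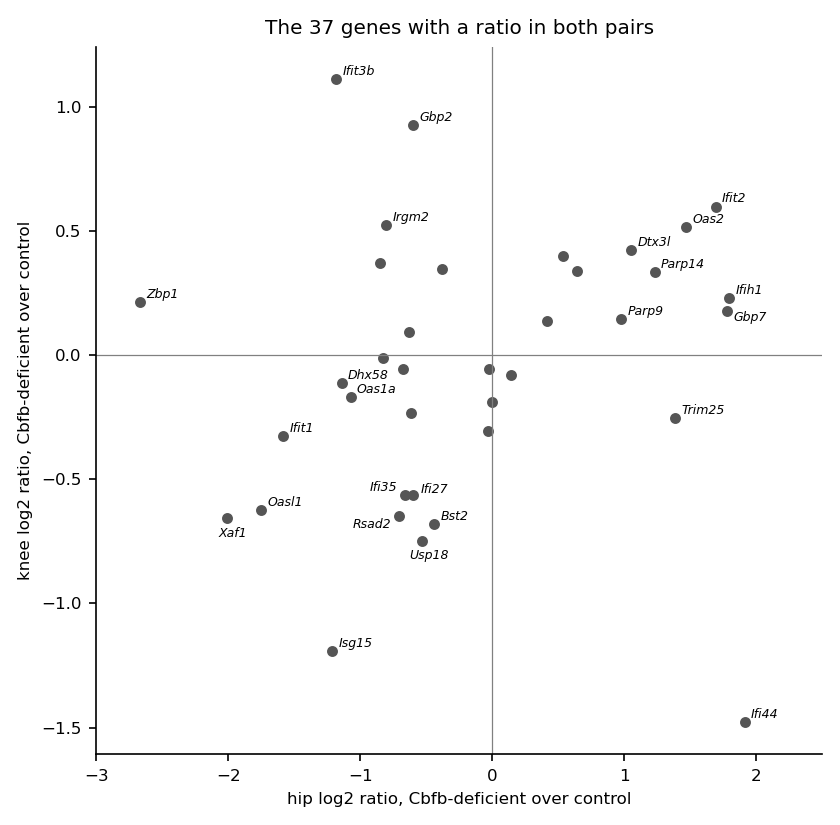
Hip log2 ratio (horizontal) against knee log2 ratio (vertical) for the 37 interferon response genes with a ratio in both pairs, each point 1 gene. Genes lie on all sides of the origin, with Isg15 and Xaf1 low in both joints, Ifit2 and Oas2 high in both, Ifit3b at upper left and Ifi44 at lower right.

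The hip ratios followed the GC content of transcripts over all genes. Across 20 bins of GC content, the median log2 ratio of all hip genes went from 1.10 in the lowest bin to -0.57 in the highest, while in the knee the bin medians stayed between -0.06 and 0.09. Of the 38 genes, those with the highest hip ratios were poor in GC, such as Ifi44 at 39.5%, Gbp7 at 41.7%, Ifit2 at 41.9% and Ifih1 at 42.4%. With the trend removed, Ifih1 stood at 1.00, Ifi44 at 0.82, Gbp7 at 0.72 and Ifit2 at 0.90. Oas2 at 1.53 and Trim25 at 1.39 were then the highest hip ratios. In total 3 genes were called higher, beside 14.4% of all genes, and 7 lower, beside 16.3%. Rsad2 at -1.37 and Irgm2 at -1.20 were called lower then, while Oasl1 and Dhx58 were not. The hip median of the genes was -0.31 in place of -0.53. In the knee, no gene changed sign, and the median was -0.08.

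Transcript length also went with the ratios. In the hip, of the 19 genes with transcripts up to 2656 nucleotides, 1 had a positive ratio, 0 lay above 0 and 13 lay below, with a median of -0.63. Of all genes up to that length, 39.9% had a positive ratio, 24.5% lay above 0 and 40.4% below. Of the 18 longer ones, 12 had a positive ratio, all 12 of them lying above 0 beyond counting error, and 4 lay below, with a median of 0.81. Among all longer genes these shares were 59.3% positive, 48.1% above and 28.3% below. All genes split at the same length had medians of -0.26 and 0.25. In the knee, split at 2675.5 nucleotides, 3 of 19 short transcripts lay above 0 and 9 below, against 12 and 4 of 19 long ones, with medians of -0.19 and 0.23 beside -0.17 and 0.15 for all genes. Of all genes, 19.0% of the short ones lay above 0 and 36.4% below, and of the long ones 45.2% and 23.2%. Spearman's rho between length and ratio was 0.49 over 37 genes in the hip and 0.37 over 38 in the knee, and 0.22 and 0.25 over all genes. These are descriptions across genes of the same 2 libraries, and the split by length was made after the values were seen. With both trends removed, the hip median of the genes was -0.13 and the knee median 0.04. In the hip Xaf1 then stood at -2.11 and Trim25 at 1.19. The part of GC content and length in the differences was not tested.

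**Figure D4:**
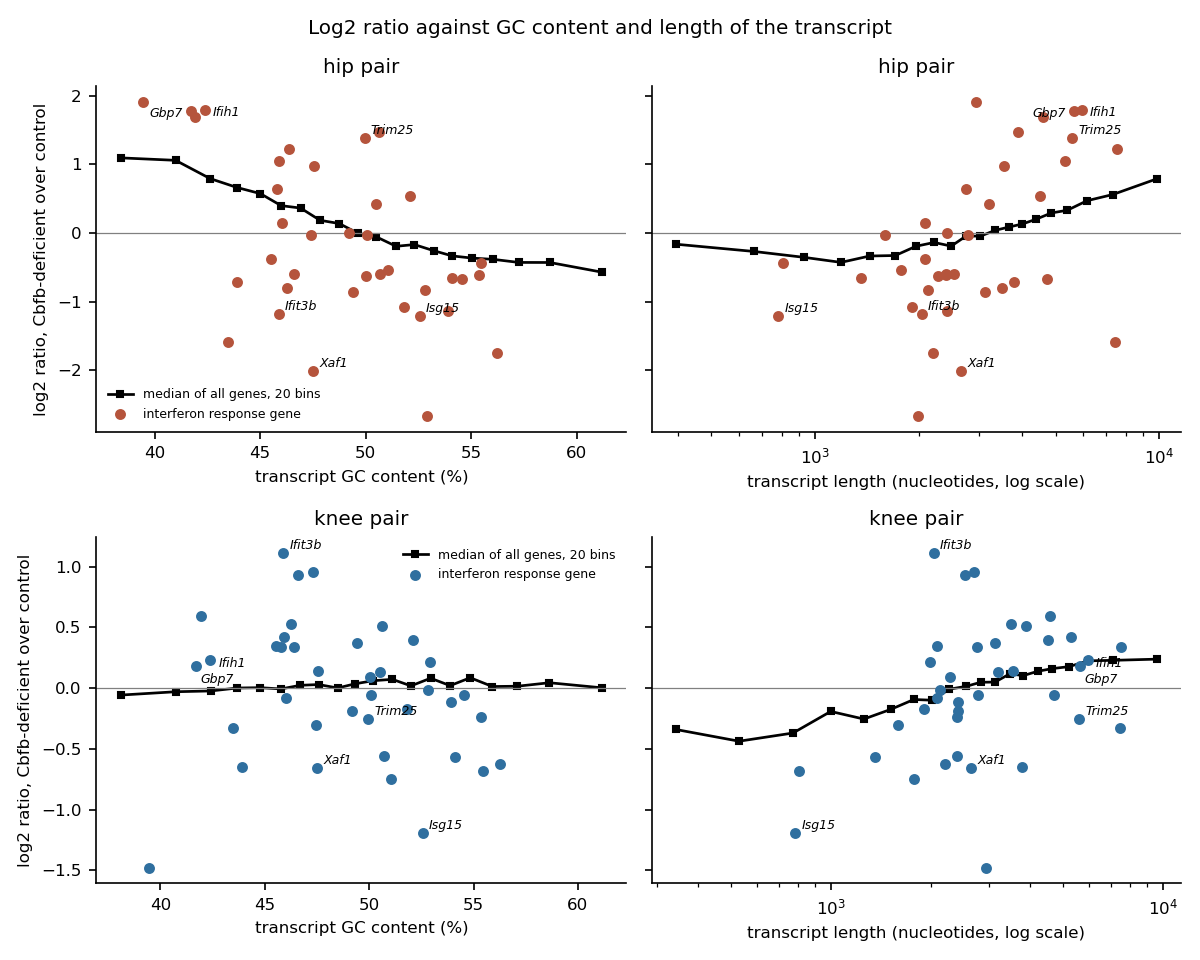
Log2 ratio of the library labelled Cbfb-deficient over its control against transcript GC content (left, %) and transcript length (right, nucleotides, log scale), hip above and knee below. Points are the interferon response genes and the black line joins the medians of all genes in 20 bins. The medians fall from 1.10 to -0.57 with GC content in the hip and stay near 0 in the knee. With length they fall over the shortest bins and then mostly rise, in both joints.

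Genes on both sides of 0 were found with and without the promoter letters. Among the 16 genes with the response element letters, 4 lay above and 8 below 0 in the hip, with a median log2 ratio of -0.62, and 8 above and 4 below in the knee, with a median of 0.14. Among the 12 whose promoter lacked them, the counts were 5 and 6 in the hip (median -0.32) and 4 and 6 in the knee (median -0.14). With the GC trend removed, the hip medians were -0.75 with the letters and -0.11 without. All genes, with or without the letters, lay above 0 in 37.3% and below in 33.7% of cases in the hip, and in 31.9% and 29.7% in the knee, and the difference between the 2 sets of promoters was not tested. Ifit3 and Ifit3b, identical in the stretch printed above, had hip ratios of -0.38 and -1.18 and knee ratios of 0.35 and 1.11.

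Upstream of these genes, no interferon ligand reached a testable count. In every library 18 of 19 ligand genes had 3 counts or fewer, and the highest count was 6. Among 11 genes for interferon receptors, kinases and STATs, 7 lay above and 2 below 0 in the hip, beside 37.3% and 33.7% of all genes, and 6 above and 4 below in the knee, beside 31.9% and 29.7%, with medians of 0.14 and 0.17. Removing the GC trend left 4 above and 3 below in the hip, beside 35.2% and 32.9%. Ifnar1, a subunit of the type I receptor, had ratios of 0.33 and 0.40, and the first became -0.015 with upper quartile scaling, while Ifngr2, of the type II receptor, had 4409 and 1721 counts in the hip (-1.16) and a knee ratio of -0.07. Jak2 had 594 and 1430 hip counts and 1246 and 2679 knee counts, at 1.46 and 0.76, and Tyk2 had 0.26 and 0.69, the first being -0.08 with upper quartile scaling and 0.69 with the GC trend removed. Cxcl10, a chemokine gene much used as a readout of interferon, was lower in both, with 27 and 7 hip counts (-1.68) and 91 and 44 knee counts (-1.38). Socs1, which restrains JAK signalling, had 112 and 7 hip counts (-3.71) and 581 and 379 knee counts (-0.96).

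A wider list of other interferon-induced genes was counted beside the 38. Of 61 such genes, 56 had enough counts in the hip, where 32 (beside 37.3% of all genes) lay above and 14 (beside 33.7%) below at a median of 0.54. With the GC trend removed 25 lay above, beside 35.2%, and 14 below, beside 32.9%, at a median of 0.28. In the knee, 25 of 60 lay above, beside 31.9% of all genes, and 17 below, beside 29.7%, at a median of 0.12. Ifi207, a DNA-binding member of the Ifi200 family, had 66 and 444 hip counts (2.94) and 411 and 494 knee counts (-0.07). Gbp9 was higher in both joints, at 1.74 and 1.29, as was Gbp5, at 1.13 and 1.21, and with the GC trend removed their hip ratios were 0.95 and 0.73, below the size of a call. Among genes of this list with at least 50 counts in 1 library, the lowest hip ratios were those of Ube2l6 and of Ifitm3, a gene that blocks viral entry, with 3949 and 1501 counts (-1.20).

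Immune cell markers also differed between the libraries of a pair. The 5 leukocyte markers summed to 93.7 and 64.2 CPM in the hip, and to 2021 and 2098 in the knee. Macrophage markers summed to 233 and 138 CPM in the hip, and to 733 and 696 in the knee, and 7 of 10 lay below 0 in the hip, beside 33.7% of all genes, and 6 of 10 in the knee, beside 29.7%. Plasmacytoid dendritic cell markers, from cells known for making type I interferon, summed to 4.0 and 1.16 in the hip, and to 70.1 and 61.5 in the knee. These sums rest largely on 1 gene. Of the hip counts, 154 and 40 over 4 genes, Spib gave 88 and 6, while Ccr9 had 10 and 13. In the knee control Spib gave 1644 of 2403 counts. B cell markers summed to 34.7 and 25.1 in the hip, and to 577 and 335 in the knee, with 7 of 8 below 0 in the hip and 8 of 8 in the knee. Of the hip counts, 1336 and 867, Ebf1 alone gave 672 and 712, and the median hip ratio of the list was -1.87. Neutrophil markers summed to 452 and 532 in the hip, and to 34336 and 27785 in the knee, where 8 of 10 lay below 0. No matched marker of these immune lists was at 0 in any library. T and NK cell markers, a further list, summed to 5.48 and 3.27 CPM in the hip, and to 82.7 and 74.5 in the knee. In each hip library 5 of these 10 markers had 3 counts or fewer, and 1 was at 0 in the library labelled Cbfb-deficient. Of the other tissues, 26 of 26 skeletal muscle and 10 of 10 adipocyte markers lay above 0 in the knee, beside 31.9% of all genes, while 7 of 8 osteoclast markers lay below. Chondrocyte markers summed to 192 and 87.3 in the hip, and to 5986 and 2425 in the knee. The part of these cells and tissues in the differences of the interferon response genes was not tested.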

How the data were processed

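Poly-A RNA of 4 libraries, 1 per condition, was measured. The authors deposited raw counts of reads on each Ensembl gene. The submitters' processing notes name FastQC 0.11.3, STAR 2.0 and mm10, while the study's methods name GRCm39. The hip counts end in HTSeq summary lines (25.8% of the control reads listed and 24.6% of the other), which were left out, and the counter of the knee is not given in the sources used here, nor is strand. Depth was 34264456 to 38473120 counts on genes, where 3 counts, the floor, equal 0.0780 to 0.0876 CPM.

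Identifiers were matched to GENCODE symbols, positions and canonical transcripts on GRCm39 (91.8% in the hip, 92.6% in the knee). TMM factors came from edgeR 4.0.16 within each pair in R 4.3.3, and size factors from DESeq2 1.42.0 served as another scaling. Python 3.11.15, numpy 2.4.6, pandas 2.3.3, scipy 1.17.1 and matplotlib 3.10.9 did the rest. Trends were the median log2 ratio of 20 bins, subtracted (length and GC in 2 rounds). Alternatives were other scalings, filters, added counts and call rules. The steps were tested on simulated data. Promoters were from RefSeq.

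All 38 genes may be named. Of each other list, those with the 2 highest and 2 lowest ratios with at least 50 counts, and Cxcl10, the interferon receptors and Cbfb, may be named, while Uba7 and Herc6 were added later. Spib, Ccr9 and Ebf1 of the cell type lists were also named later. A gene of the rule is not reported here. Genes, lists and rules were chosen with earlier results of these data known. Overlap of exons was read from GENCODE on either strand.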

Additional observations from a re-analysis of the deposited data

Results flagged for a closer look

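For 2 of the 38 genes the joints went opposite ways, with intervals on opposite sides of 0, no fewer than 50 counts in either pair, and a size of 1 or more on the log2 scale in the hip or knee. These limits were set after values were seen, and the difference between joints was not tested. Ifit3b had a log2 ratio of -1.183 in the hip and 1.111 in the knee, and Trim25 had 1.388 in the hip and -0.2532 in the knee. Ifit3b shares its sequence closely with Ifit3, and the interval of Trim25 in the knee included 0 when scaled by library size alone.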

How the results depend on the processing

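No paired analysis was possible because each condition had 1 library, and no library could be left out. In the hip, 8 genes called higher became 5 with upper quartile scaling, 3 with the GC trend removed and 2 with length and GC trends removed. The 7 called lower became 14 with upper quartile scaling and 17 when the counting interval alone made a call. In the knee, the 1 gene called higher became 3 with library size scaling, 0 with upper quartile scaling and 15 by the interval alone. The 2 called lower became 1 with length and GC trends removed, without Isg15, 13 by the interval alone, and 1 among genes with at most 10% of exon bases shared with another gene, a choice made after seeing the data. The knee median of -0.03 became 0.15 with library size scaling. The hip median stayed below 0, from -0.88 (upper quartile) to -0.13 (both trends removed). No gene that was called changed sign under these alternatives. Sign changes were met for at most 5 genes in the hip (both trends removed) and 6 in the knee (library size). Among all genes called, the share higher was 55.4% in the hip and 36.8% with upper quartile scaling, 47.0% with the GC trend removed, 46.7% with both trends removed and 68.5% with at least 10 counts in each library. In the knee it was 56.9%, and 71.3% with library size, 46.5% with upper quartile scaling. Hip counts under about 20, as for Mx1, Oasl1, Zbp1 and Ifi44, limit what those ratios show.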

Other observations

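Genes of antigen presentation by MHC class I and of the immunoproteasome, which interferons also induce, were mostly lower in both joints with TMM scaling. In the hip, 11 of 14 had intervals below 0, beside 33.7% of all genes, and 2 above, at a median log2 ratio of -0.62. Once the GC trend was removed, 9 lay below, beside 32.9% of all genes, and 4 above, beside 35.2%, at a median of -0.30. With the length and GC trends removed the median was -0.11 in the hip and -0.18 in the knee. In the knee 13 of 14 lay below, beside 29.7% of all genes, and 0 above, at a median of -0.27. This knee count was made with TMM alone, and library size scaling raises every knee ratio. The knee intervals of Tap1 and H2-Q4 ended just under 0, at -0.0002 and -0.002. Psme1 and Psme2, which encode the proteasome activator subunits, had hip ratios of -1.38 and -0.70 and knee ratios of -0.47 and -0.59. Psmb9, an immunoproteasome subunit, had 259 and 102 counts in the hip (-1.14, or -0.78 with the GC trend removed), and H2-K1, a class I heavy chain, had 4635 and 4357 (0.11, or 0.49 with the GC trend removed). In the knee, the ratio of H2-K1 was -0.18 from 21640 and 24181 counts, and library size scaling moved the median of all knee genes by about as much.

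Nucleic acid sensing genes outside the 38 lay on both sides of 0. Of 15 with enough counts in the hip, 3 lay above, beside 37.3% of all genes, and 5 below, beside 33.7%. Removing the GC trend gave 5 and 7, beside 35.2% and 32.9%. Of 16 in the knee, 7 lay above, beside 31.9%, and 6 below, beside 29.7%. The endosomal receptor genes Tlr9, with 37 and 242 counts, and Tlr8, with 27 and 149, were higher in the knee, at 2.35 and 2.10. In the hip, Irf5 had 1140 and 323 counts (-1.62), and Tbk1, which encodes the kinase that activates IRF3, had 264 and 669 (1.54). Among 9 negative regulators, 6 lay above and 2 below in the hip (4 and 1 with the GC trend removed), and 3 above and 6 below in the knee, beside the same shares of all genes.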
